A study of Mus musculus with 8 samples.

Results

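The genes described here are 32 genes of terminal epidermal differentiation, taken from a fixed list of genes of the spinous, granular and cornified layers and matched to the arrays by the platform's gene symbol. All 32 were measured, by 40 probe sets, among 17097 genes and 45141 probe sets in all. Gene expression was profiled on Affymetrix arrays in bulge cells, the stem cell compartment of the hair follicle, from shaved mouse back skin. The mice received weekly applications of DMBA (7,12-dimethylbenz[a]anthracene), a mutagen, and TPA (12-O-tetradecanoylphorbol-13-acetate), a tumour promoter, each as 200 µl of a solution in acetone at 0.25 mg/ml and 0.02 mg/ml. Treatment began at an age of 8 weeks and lasted 6 weeks, and the skin was pre-neoplastic. The labels give an age of 15 weeks. Of the animals, 4 were labelled G9a cKO (conditional knockout) and 4 were labelled G9a WT. G9a is an enzyme that methylates histone H3. Both groups received DMBA and TPA, and untreated skin was not analysed here. The sources used here do not give the promoter that drives the deletion or the way the bulge cells were isolated.

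Terminal differentiation is the passage of a keratinocyte from the basal layer to the skin surface. Spinous cells replace the basal keratins with keratins 1 and 10 and build desmosomes of their own, granular cells store filaggrin and related proteins and secrete lipids, and in the cornified layer transglutaminases link involucrin, loricrin and small proline-rich proteins into an envelope. Bulge stem cells lie outside this programme in resting skin, and their progeny can enter it after wounding or during hyperplasia. The comparison of the genotypes asks which of these transcripts differ with G9a before tumours form.

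The labels were checked first. Ehmt2, which encodes G9a, read 6.44, 5.54, 5.80 and 5.64 in the cKO arrays and 9.29, 8.89, 8.93 and 9.15 in the WT arrays on probe set 1460692_PM_at (log2 expression), so the groups did not overlap. Its second probe set, 1426888_PM_at, read 8.41 ± 0.02 and 8.41 ± 0.01 (mean ± SD, n = 4 each), and the sources used here do not place either one relative to the deleted part. The bulge markers Krt15 (12.36 ± 0.03 in cKO and 12.26 ± 0.06 in WT), Lgr5 (11.01 ± 0.08 and 11.04 ± 0.05) and Cd34 (10.45 ± 0.20 and 10.54 ± 0.13) read high on every array. The pan-leukocyte gene Ptprc read 3.60 ± 0.02 and 3.61 ± 0.07, close to the lowest values in the data, but 4 of 10 measured T cell and Langerhans cell genes lay above the dim range defined below. WT replicate 4 stood apart from the other WT arrays in some measures only. Over all genes it was the highest of the 8 arrays for 15.2%, against 16.3% for cKO replicate 1 and 15.0% for WT replicate 3. Without WT replicate 4, 796 genes passed the test between genotypes in place of 472. The mean of 19 immediate early genes, transcribed within minutes of a stimulus, lay 0.15 log2 below the mean over all arrays in WT replicate 4. That mean lay 0.20 to 0.35 above in WT replicates 1 to 3. Where leaving out WT replicate 4 changed whether a gene described below passed the test, both results are given.

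Few of the differentiation genes differed between the genotypes. At an adjusted p under 0.05 over all genes (limma, Benjamini-Hochberg), Sbsn rose in cKO and Krtdap fell, both of the spinous layer, and the other 30 did not pass. Across all genes 1.92% rose and 0.836% fell, so a count of 1 in each direction is no result about the list as a whole. The cKO and WT values did not overlap for Sbsn (higher) and for Krtdap (lower), where over all genes 5.15% were separated with cKO higher and 3.09% with cKO lower. The median log2 change of the 32 genes was -0.0030, against 0.0027 over all genes tested, and 14 lay within 0.1 of 0. In these bulk samples, fewer cells of a type and less RNA per cell cannot be told apart.

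By layer, 7 of the 9 spinous genes lay above 0 (median log2 change 0.10), as did 3 of the 9 granular genes (-0.03), 3 of the 10 genes of the cornified envelope (-0.03) and 2 of the 4 genes of barrier lipids (0.0055). Over all genes 51.5% lay above 0. In the granular, cornified envelope and lipid groups no gene passed the test on all 8 arrays. With WT replicate 4 left out the medians were 0.13 (8 above 0), -0.02 (4 above 0), -0.12 (3 above 0) and 0.02 (2 above 0) in the same order. Differences between the layers were not tested. A mean over all arrays at or under 5.67, the level that 40% of all tested genes do not exceed, was found for 13 of the 32, among them Flg, Hrnr, Krt2 and Sprr3. Array readings compress differences at such levels, and 19 genes lay above it. The dim genes were 2 of the 9 spinous, 3 of the 9 granular, 5 of the 10 envelope and 3 of the 4 lipid genes.

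**Figure D1:**
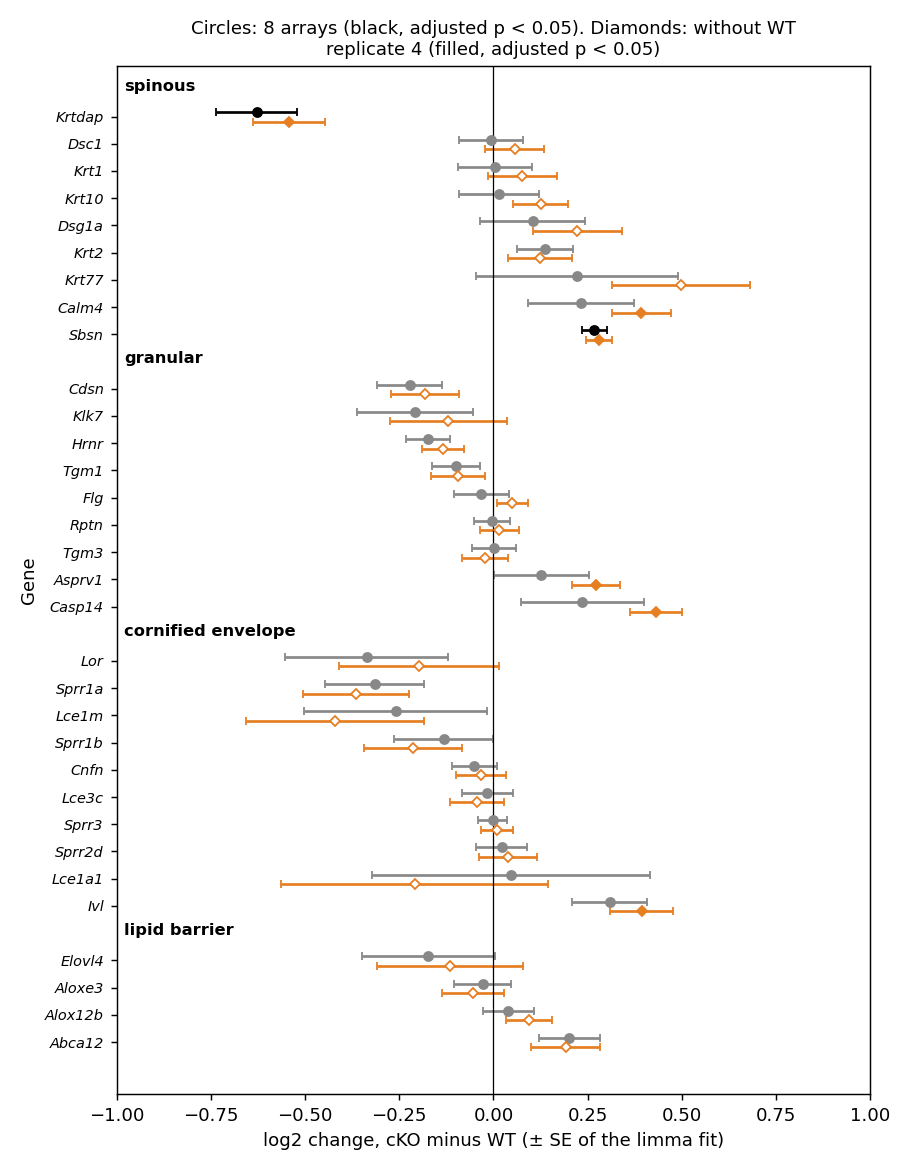
log2 change between genotypes (cKO minus WT, x axis, with the standard error of the limma fit) for the 32 genes, grouped by layer on the y axis. Circles show all 8 arrays, with Sbsn and Krtdap in black as the genes past the threshold, and diamonds the fit without WT replicate 4, where filled diamonds mark Sbsn, Krtdap, Calm4, Casp14, Asprv1 and Ivl.

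Sbsn encodes suprabasin, a secreted protein of suprabasal keratinocytes. Its probe set 1459897_PM_a_at read 12.07, 12.15, 12.12 and 12.15 in cKO replicates 1 to 4 and 11.81, 11.89, 11.82 and 11.89 in WT replicates 1 to 4 (log2). Every cKO array lay above every WT array, and WT replicate 4 read like the other WT animals. The means were 12.12 ± 0.04 and 11.85 ± 0.05 (SD, n = 4 each), a 1.20-fold rise with a log2 change of 0.27 (SE 0.03, limma adjusted p = 0.00213). By exact permutation (two-sided) p was 0.0286, which is the lower limit for 4 against 4 arrays. These values lie near the top of the measured range, which ends at 13.1.

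The other Sbsn probe sets moved the same way, and 1 of them moved more. Probe set 1459898_PM_at read 10.10, 10.49, 10.32 and 10.30 in cKO and 9.55, 9.68, 9.35 and 9.53 in WT, which is 1.71-fold higher in cKO (log2 change 0.78, SE 0.09; limma adjusted p = 0.00161 across all probe sets). Probe set 1439630_PM_x_at read 12.01 ± 0.03 and 11.71 ± 0.05 (n = 4 each), 1.23-fold higher (limma adjusted p = 0.00132 in the same fit). All 3 probe sets thus passed, where 1.77% of all probe sets did in either direction, but they share animals and a transcript and do not count as independent evidence. The size of the rise depended on the probe set, from 1.20-fold to 1.71-fold.

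Krtdap encodes a small secreted peptide, keratinocyte differentiation associated protein, which is made by suprabasal cells. It read 7.19, 7.03, 7.16 and 7.05 in cKO replicates 1 to 4 and 7.46, 7.62, 7.86 and 7.99 in WT replicates 1 to 4 (log2). All cKO arrays lay below all WT arrays, and the WT animals were spread more widely than the cKO animals. The means were 7.10 ± 0.08 and 7.73 ± 0.24 (SD, n = 4 each), a 1.55-fold fall with a log2 change of -0.63 (SE 0.11, limma adjusted p = 0.0115; exact two-sided permutation p = 0.0286). Without WT replicate 4, its highest array, the fall was 1.46-fold (limma adjusted p = 0.0127). Over the 8 fits without 1 array its adjusted p by limma reached 0.0466, and Krtdap and Sbsn passed in each of them.

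Sbsn and Krtdap are neighbours with only Dmkn between them in the RefSeq gene order of GRCm38.p6, so members of 1 locus differed in opposite directions. Dmkn encodes dermokine, a secreted protein of the granular and spinous layers. It read 12.05, 12.12, 12.19 and 12.14 in cKO and 12.15, 12.13, 12.11 and 12.18 in WT (log2; limma adjusted p = 0.914), and the groups overlapped. The log2 change of Dmkn was -0.02 (SE 0.03), so the gene between them moved by less than the spread between its animals. Differences between the changes of the neighbours were not tested.

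The bases before the start of Sbsn and Krtdap are shown because these neighbours moved in opposite directions. Each run holds the 250 bases upstream of the RefSeq start on GRCm38.p6, 5′ to 3′ on the gene's strand. Capitals mark matches to motifs, searched on both strands, and matches may overlap. The AP-1 motif was TGANTCA. As the TATA box, TATAAA was searched. The motif of the grainyhead-like (Grhl) factors was AACNGGTT. For C/EBP it was TTNNGCAA, and for the Klf family CCNCNCCC.
Sbsn, chr7:30751221-30751470, plus strand: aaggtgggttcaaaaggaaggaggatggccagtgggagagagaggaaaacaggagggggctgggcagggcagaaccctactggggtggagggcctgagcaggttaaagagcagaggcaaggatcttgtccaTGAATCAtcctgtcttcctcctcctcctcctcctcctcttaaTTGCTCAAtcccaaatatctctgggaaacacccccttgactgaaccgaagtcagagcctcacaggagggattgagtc
Krtdap, chr7:30787655-30787904, plus strand: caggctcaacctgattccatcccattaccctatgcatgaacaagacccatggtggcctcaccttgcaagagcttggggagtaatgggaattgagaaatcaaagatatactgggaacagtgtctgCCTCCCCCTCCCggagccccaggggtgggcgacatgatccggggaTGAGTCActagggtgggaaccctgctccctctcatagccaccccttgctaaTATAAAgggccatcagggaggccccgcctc

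Both windows hold an AP-1 match, TGAATCA starting 119 bases before the start of Sbsn and TGAGTCA starting 81 bases before that of Krtdap. Krtdap also has TATAAA starting 30 bases before its start, and in the Sbsn window that motif was not matched. A C/EBP match, TTGCTCAA, starts 77 bases before Sbsn, and 2 overlapping Klf matches start 126 and 122 bases before Krtdap. Of the 28 members with a promoter in the RefSeq table, 9 (32.1%) had the AP-1 match in this window, against 6.87% of the 27025 genes in the table. TATAAA was found in 13 (46.4%, against 13%), the C/EBP match in 6 (21.4%, against 9.55%), the Klf match in 14 (50%, against 45.6%) and the Grhl match in 1 (3.57%, against 1.71%). A match describes letters only, and gene families among the members share sequence. The members with AP-1 matches were Flg, Ivl, Krtdap, Lor, Rptn, Sbsn, Sprr1a, Sprr1b and Sprr2d.

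**Figure D2:**
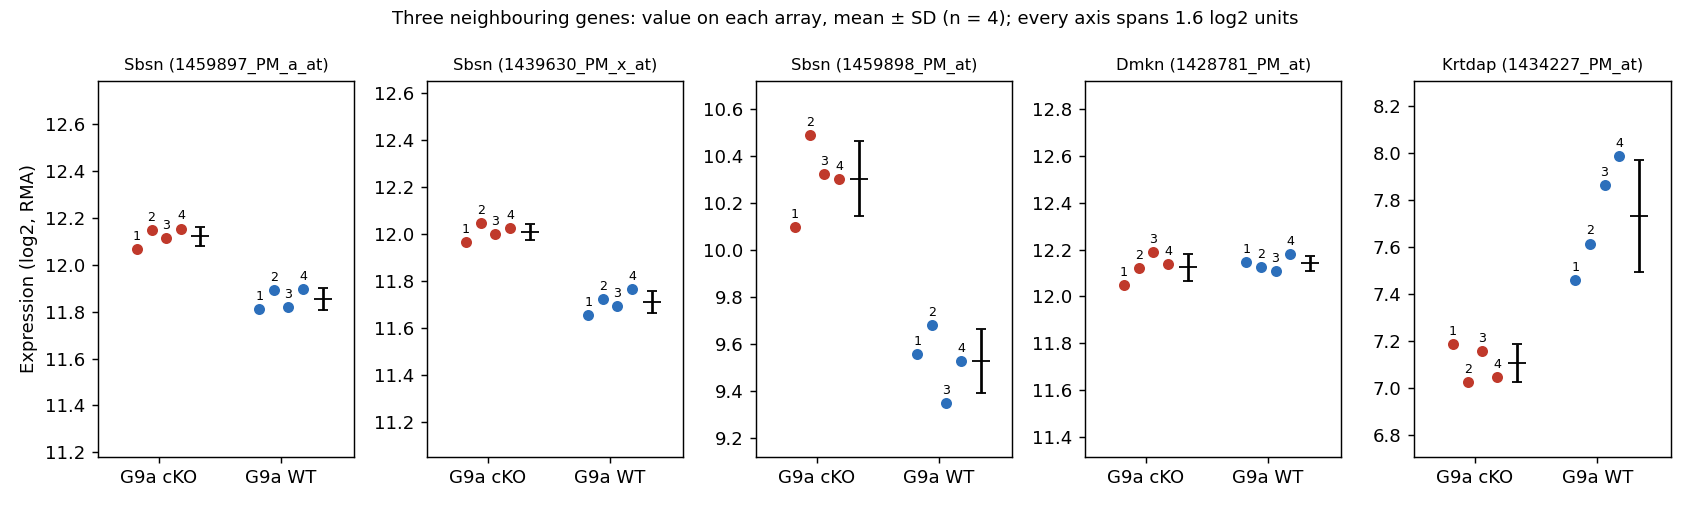
Values on each array (log2 RMA, y axis; each axis spans the same number of log2 units) of the neighbours Sbsn (3 probe sets), Dmkn and Krtdap, with the replicate number at each point and mean ± SD (n = 4). The cKO arrays lie above all WT arrays in every Sbsn panel, overlap them for Dmkn and lie below them all for Krtdap.

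The other spinous genes did not pass the test. Krt1 and Krt10, the keratin pair that defines the spinous layer, read 10.02 ± 0.19 and 10.38 ± 0.15 in cKO and 10.01 ± 0.15 and 10.37 ± 0.22 in WT (log2, n = 4 each; limma adjusted p = 0.993 and 0.982). Transcripts of the defining suprabasal keratins were thus detected in cells labelled as bulge in both genotypes. The keratin genes Krt77 and Krt2 had log2 changes of 0.22 (SE 0.27) and 0.14 (SE 0.08). The Krt77 change was 0.50 when WT replicate 4 was left out (limma adjusted p = 0.185), and over the fits without 1 array it ran from 0.10 to 0.50. The desmosomal cadherin genes Dsc1 and Dsg1a had changes of -0.0059 (SE 0.08) and 0.10 (SE 0.14), the latter 0.22 without WT replicate 4.

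Calm4, which encodes a calmodulin-like calcium sensor of differentiating keratinocytes, read 7.93, 7.93, 8.05 and 7.73 in cKO replicates 1 to 4 and 7.56, 7.47, 7.52 and 8.16 in WT replicates 1 to 4. The highest array of all was WT replicate 4, while the other WT arrays lay below every cKO array. On all 8 arrays the change was 1.18-fold (log2 change 0.23, SE 0.14, limma adjusted p = 0.542). With that array left out Calm4 rose 1.31-fold in cKO (limma adjusted p = 0.0218).

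Granular genes showed the same arrangement in Casp14 and Asprv1, both of which encode proteases of filaggrin maturation. Casp14 read 6.71, 6.60, 6.75 and 6.70 in cKO and 6.20, 6.19, 6.38 and 7.04 in WT replicates 1 to 4. Asprv1 read 8.63, 8.57, 8.63 and 8.51 in cKO and 8.19, 8.36, 8.39 and 8.89 in WT. In both genes WT replicate 4 was the highest of all 8 arrays and WT replicates 1 to 3 were the 3 lowest. On all arrays their log2 changes were 0.24 (SE 0.16, limma adjusted p = 0.611) and 0.13 (SE 0.13, limma adjusted p = 0.764). Leaving it out, Casp14 rose 1.35-fold (limma adjusted p = 0.00867) and Asprv1 1.21-fold (limma adjusted p = 0.0439).

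Ivl, which encodes the envelope precursor involucrin, read 6.99, 7.04, 7.10 and 7.10 in cKO and 6.49, 6.68, 6.83 and 7.00 in WT replicates 1 to 4. Only WT replicate 4 reached into the range of the cKO arrays. The change on all arrays was 1.24-fold (log2 0.31, SE 0.10, limma adjusted p = 0.166), and without WT replicate 4 Ivl rose 1.31-fold (limma adjusted p = 0.0279). Its second probe set, 1439878_PM_at, had a log2 change of 0.31 on all arrays (limma adjusted p = 0.439 across all probe sets) and 0.48 without WT replicate 4 (limma adjusted p = 0.0228).

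Without WT replicate 4, 5 of the 32 genes thus rose (Sbsn, Calm4, Casp14, Asprv1 and Ivl) and 1 fell (Krtdap), where 2.94% of all genes rose and 1.72% fell in that fit. The array left out was chosen after its values were seen, and it held the highest values of Calm4, Casp14 and Asprv1. Besides its low immediate early level it had the lowest mean of 9 stress keratin and alarmin genes, 0.28 log2 below the mean over all arrays, where WT replicates 1 to 3 ran from -0.16 to 0.35 and the cKO arrays from -0.20 to 0.11. Without it 17 of the 19 immediate early genes fell in cKO, against 0 with it (limma, in both fits; all 19 lay below 0 on all arrays). The part of these differences in the results was not tested.

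The upstream bases of Calm4, Casp14, Asprv1 and Ivl are shown because these genes passed the test only when WT replicate 4 was left out. That array held the highest WT value of each, so leaving it out raised each change by construction. The bases are given as for Sbsn, with the same motifs in capitals.
Calm4, chr13:3837507-3837756, plus strand: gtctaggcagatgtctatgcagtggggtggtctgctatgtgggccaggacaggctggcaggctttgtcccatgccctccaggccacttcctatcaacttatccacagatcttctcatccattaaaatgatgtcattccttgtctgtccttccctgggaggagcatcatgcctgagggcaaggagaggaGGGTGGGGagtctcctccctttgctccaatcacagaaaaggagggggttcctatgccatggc
Casp14, chr10:78718294-78718543, minus strand: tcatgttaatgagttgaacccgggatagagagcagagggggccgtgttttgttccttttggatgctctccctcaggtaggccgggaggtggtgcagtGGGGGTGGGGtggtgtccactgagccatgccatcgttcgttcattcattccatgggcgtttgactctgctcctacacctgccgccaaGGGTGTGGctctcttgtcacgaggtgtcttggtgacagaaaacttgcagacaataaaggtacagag
Asprv1, chr6:86627924-86628173, plus strand: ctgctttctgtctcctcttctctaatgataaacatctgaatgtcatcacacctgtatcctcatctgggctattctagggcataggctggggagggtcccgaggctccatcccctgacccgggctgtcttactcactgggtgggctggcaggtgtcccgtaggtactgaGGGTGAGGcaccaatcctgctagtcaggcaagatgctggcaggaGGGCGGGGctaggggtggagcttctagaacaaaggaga
Ivl, chr3:92573736-92573985, minus strand: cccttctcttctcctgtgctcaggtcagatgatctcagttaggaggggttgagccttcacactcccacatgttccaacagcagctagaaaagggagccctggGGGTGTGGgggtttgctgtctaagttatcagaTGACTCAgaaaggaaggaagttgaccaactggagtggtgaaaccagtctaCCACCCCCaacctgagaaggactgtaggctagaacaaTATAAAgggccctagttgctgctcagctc

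All 4 windows hold Klf matches, which 45.6% of all promoters in the table have. Among the 4, an AP-1 match (TGACTCA, starting 116 bases before the start) and TATAAA (starting 29 bases before it) were found in Ivl alone.

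Other granular genes lay mostly below 0. Hrnr, which encodes the filaggrin relative hornerin and had the lowest p of the layer, read 3.79, 3.60, 3.70 and 3.61 in cKO and 3.82, 3.73, 3.88 and 3.97 in WT. The groups overlapped by 1 cKO array, replicate 1, and all values lay close to the bottom of the scale (log2 change -0.17, SE 0.06, limma adjusted p = 0.191). Flg, the filaggrin gene, read 3.92 ± 0.05 and 3.95 ± 0.17 (limma adjusted p = 0.930), and Rptn, which encodes the related repetin, changed by -0.0041 (SE 0.05). The transglutaminase genes Tgm1 and Tgm3 changed by -0.10 (SE 0.06) and 0.0022 (SE 0.06). Klk7, a protease gene of desquamation, and Cdsn, the gene of its substrate corneodesmosin, changed by -0.21 (SE 0.15, limma adjusted p = 0.643) and -0.22 (SE 0.09, limma adjusted p = 0.268). Both were highest in WT replicates 3 and 4, and without the latter Klk7 changed by -0.12.

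Of the cornified envelope genes other than Ivl none passed in either fit. Lor, the loricrin gene, read 6.61, 6.66, 6.41 and 5.86 in cKO and 6.15, 6.79, 6.80 and 7.14 in WT, with overlapping groups (log2 change -0.34, SE 0.22, limma adjusted p = 0.574, and -0.20 without WT replicate 4). The small proline-rich protein genes Sprr1a and Sprr1b changed by -0.32 (SE 0.13, limma adjusted p = 0.316) and -0.13 (SE 0.13), the latter by -0.21 without WT replicate 4, and both were highest in WT replicate 3. Sprr2d and Sprr3 changed by 0.02 (SE 0.07) and -0.0018 (SE 0.04). Cnfn, which encodes cornifelin, changed by -0.05 (SE 0.06) and the late envelope gene Lce3c by -0.02 (SE 0.07).

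The late cornified envelope genes Lce1a1 and Lce1m had wide ranges. Lce1a1 read 5.22, 5.28, 4.29 and 4.17 in cKO and 4.29, 5.65, 4.90 and 3.93 in WT, a span of 1.72 log2 over all arrays, and its second probe set gave the same lowest and highest array. Lce1m read 6.20, 5.76, 5.62 and 5.65 in cKO and 5.63, 6.76, 6.28 and 5.58 in WT. Both were highest in WT replicate 2 and lowest in WT replicate 4, and neither differed between genotypes (limma adjusted p = 0.984 and 0.742). Their log2 changes were 0.05 and -0.26 on all arrays and -0.21 and -0.42 without WT replicate 4. The stress keratin gene Krt6b read 4.55, 6.25, 3.94 and 4.86 in cKO and 4.55, 7.01, 6.98 and 3.70 in WT, so it also had its highest value in WT replicate 2 and its lowest in WT replicate 4. Lce1m, Lce3c and Lor were read by probe sets marked as matching more than 1 transcript, so their readings may include related transcripts.

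Krt77 showed a different order of animals. It read 8.07, 8.37, 8.91 and 8.84 in cKO and 8.17, 7.95, 8.02 and 9.16 in WT, high in cKO replicates 3 and 4 and WT replicate 4, the 3 lowest arrays for Lce1a1, where WT replicate 1 read like cKO replicate 3. The mean of the 9 spinous genes lay 0.28 log2 above their mean over all arrays in WT replicate 4. It ran from -0.13 to -0.11 in the other WT arrays and from -0.06 to 0.15 in cKO. The mean of the 10 envelope genes was instead highest in WT replicate 2 (0.22) and lowest in cKO replicate 4 (-0.21). Krt77, Lor, Lce1a1 and Lce1m, and Krt6b outside the 32, are given array by array because of the spread seen in them.

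**Figure D3:**
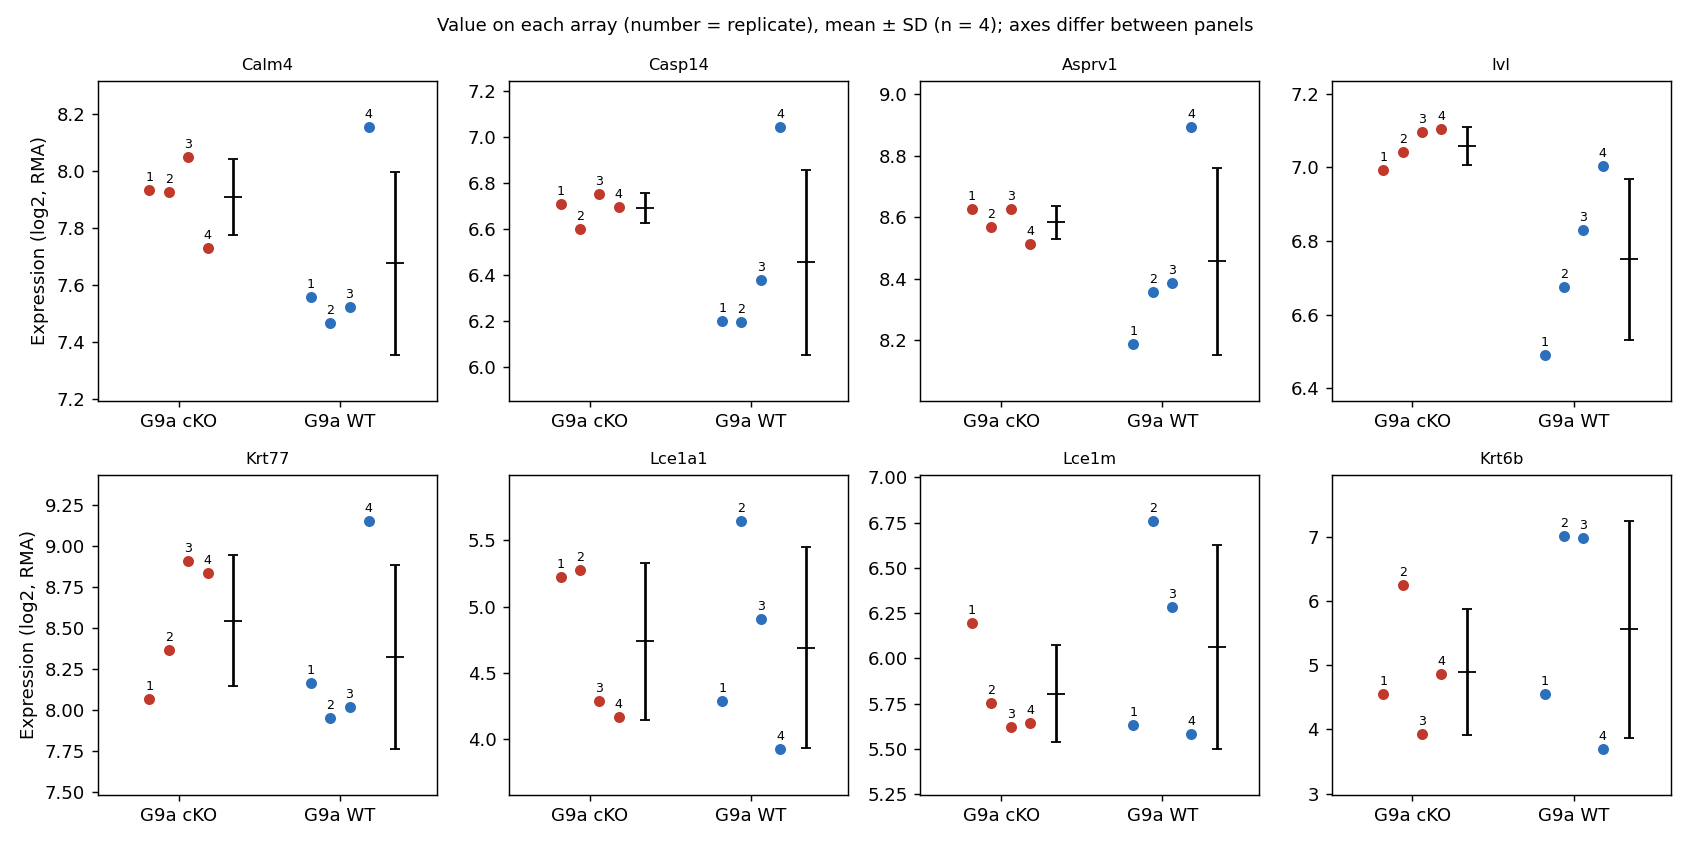
Values on each array (log2 RMA, y axis, with a scale of its own per panel) by genotype, with the replicate number at each point and mean ± SD (n = 4). WT replicate 4 is the highest array for Calm4, Casp14, Asprv1 and Krt77, and the lowest for Lce1a1, Lce1m and Krt6b.

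Genes of the lipid barrier did not pass either. Abca12, the lipid transporter of lamellar bodies, had the lowest p of them and read 4.60, 4.73, 4.92 and 4.50 in cKO and 4.51, 4.55, 4.43 and 4.46 in WT, with cKO replicate 4 inside the WT range (log2 change 0.20, SE 0.08, limma adjusted p = 0.286). The epidermal lipoxygenase genes Aloxe3 and Alox12b changed by -0.03 (SE 0.07) and 0.04 (SE 0.07). Elovl4, an elongase gene for very long fatty acids, changed by -0.17 (SE 0.18) and ran from 6.26 in WT replicate 2 to 7.28 in WT replicate 3.

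The 32 genes were more variable between animals of a genotype than most genes. Their median residual SD was 0.15 log2, against 0.085 over all genes, and 15 of them lay above the 90th percentile of all genes (0.17). WT replicate 4 was the highest of the 8 arrays for 12 of the 32 (37.5%), where it was highest for 15.2% of all genes. It was highest for 6 of the 9 spinous genes, 4 of the 9 granular genes, 1 of the 10 envelope genes and 1 of the 4 lipid genes. These 12 were Krt10, Krt77, Dsc1, Dsg1a, Krtdap, Calm4, Flg, Hrnr, Casp14, Asprv1, Lor and Alox12b. The markers of basal epidermis, 8 genes with Krt5 and Krt14 among them, were highest in WT replicate 4 in 0 cases.

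**Figure D4:**
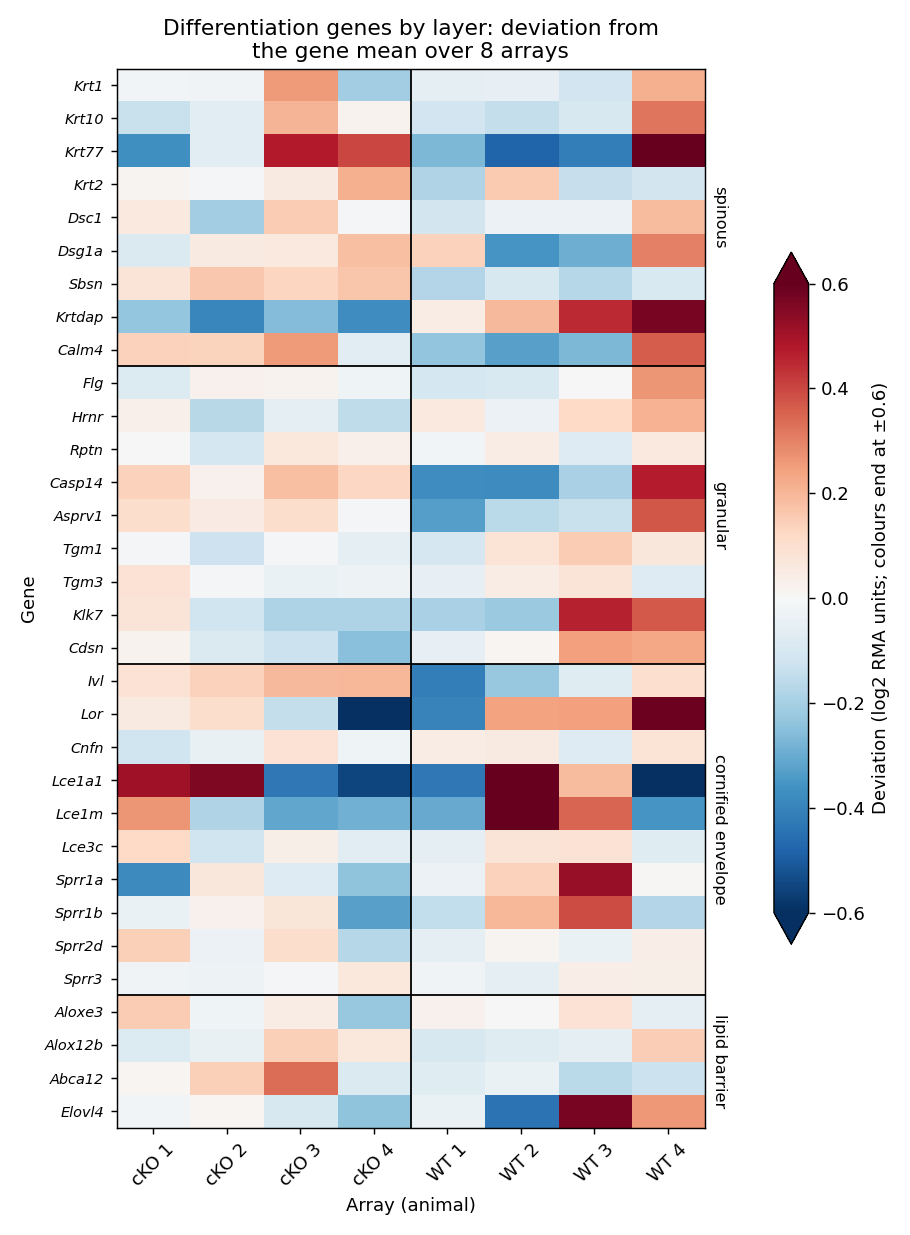
Deviation of each of the 32 genes (rows, by layer) from its mean over the 8 arrays (columns), in log2 RMA units with colours ending at the values on the colour bar. The column of WT replicate 4 is red for Krt77, Krtdap, Casp14 and Lor and blue for Lce1a1 and Lce1m, and the rows of Sbsn and Krtdap change colour at the line between the genotypes.

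The members also differ in position. The 12 members on chromosome 3, in the epidermal differentiation complex that holds the envelope and filaggrin family genes, include none that passed, and 9 had a change below 0 (median -0.02). Ivl alone of these passed when WT replicate 4 was left out. Of the 20 members elsewhere in the genome 12 lay above 0 (median 0.00996), with Sbsn and Krtdap as the genes past the threshold. Across all genes 1.92% rose and 0.836% fell, so the absence of a passing gene among 12 is no result about them. Of all 17097 genes 8299 lay below 0. The dim range held 7 of the 12 members on chromosome 3 and 6 of the other 20. Differences between the 12 and the 20 were not tested. With WT replicate 4 left out, the median of the chromosome 3 members was -0.09 (5 above 0) and that of the others 0.09 (12 above 0). Both medians thus depended on 1 array and stayed within 0.1 of 0 in both fits.

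Related genes outside the 32 gave 2 rises and 1 fall in 55 for cornification and 1 rise in 30 for lipids, where 1.92% of all genes rose and 0.836% fell. Of the 55 measured genes of cornification and desquamation, the thioesterase gene Them5 (1.48-fold, limma adjusted p = 0.00380) and the keratinocyte surface gene Skint10 (1.38-fold, limma adjusted p = 0.00845) rose and the membrane protein gene Ly6d fell (1.30-fold, limma adjusted p = 0.0218). Ly6d passed in 5 of the 8 fits without 1 array, with a highest adjusted p of 0.0800 by limma. Skint10 ran from 4.39 to 5.13 over the arrays and lay in the dim range. The median of the list was -0.03, and the other 52 did not pass. Of the 30 further barrier lipid genes the lipase gene Lipk rose (1.32-fold, limma adjusted p = 0.0395), and it passed in 2 of the 8 fits without 1 array. Lipk too lay in the dim range. When WT replicate 4 was left out Lipk did not pass (limma adjusted p = 0.0618). In that fit the acyltransferase gene Dgat2 rose 1.37-fold (limma adjusted p = 0.0404, against 0.214 on all arrays). The lipoxygenase gene Alox12e fell 1.36-fold there (limma adjusted p = 0.00867, against 0.139 on all arrays). Among the WT arrays, WT replicate 4 was the highest for Dgat2 and the lowest for Alox12e. Leaving it out thus enlarged both changes by construction.

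Markers of other cells that the sample could hold were read in the same fit. None of 8 measured genes of basal epidermis, 9 of stressed epidermis, 9 of the sebaceous gland, 10 of macrophages and neutrophils, 7 of endothelium, 8 of melanocytes or 7 of skeletal muscle passed (limma, adjusted p under 0.05). Across all genes 1.92% rose and 0.836% fell, so the absence of a passing gene in lists this short is no result about them. All 10 macrophage and neutrophil genes and all 7 muscle genes lay in the dim range. Of 16 bulge and outer root sheath genes Fst and Foxc1 fell, which passed in 5 and 4 of the 8 fits without 1 array. Of these 16 genes 4 lay above 0 (median log2 change -0.03), and 10 lay within 0.1 of 0. Of 10 genes of the infundibulum Defb6 (2.35-fold, limma adjusted p = 0.000439, passing in all 8) and again Fst fell. The median log2 change of these 10 was -0.24, with 7 below 0. Relative to the mean over all arrays, their mean ran from -0.27 to -0.05 in the cKO arrays and from 0.06 to 0.31 in the WT arrays. Among 17 hair shaft and inner root sheath genes, Dlx3, Krt71 and Msx2 rose, in 8, 4 and 1 of the 8 fits without 1 array. Of these 17 genes 7 lay below 0 (median log2 change 0.0049), and 11 lay in the dim range. Msx2 did not pass without WT replicate 4 (limma adjusted p = 0.0571). Of 10 T cell and Langerhans cell genes Thy1 rose from 6.90 ± 0.10 in WT to 7.47 ± 0.25 in cKO (n = 4 each, 1.48-fold, passing in 3 of the 8 fits). In that list 6 of the 10 lay below 0 (median log2 change -0.01). Of 10 fibroblast genes Col1a1 fell (1.88-fold, passing in all 8). Of these fibroblast genes 4 lay above 0 (median log2 change -0.04), 7 lay within 0.1 of 0 and 7 lay in the dim range. With WT replicate 4 left out, 2.94% of all genes rose and 1.72% fell. In the same fit 3 bulge genes fell, Nfatc1 being the addition (limma adjusted p = 0.0391, against 0.0566 on all arrays). In that fit 1 infundibulum gene, Sostdc1, rose (limma adjusted p = 0.000734, against 0.155). These additions were named after their values were seen. Among the WT arrays, WT replicate 4 was the lowest for Nfatc1 and the highest for Sostdc1, so leaving it out enlarged both changes by construction. The part of these shifts in the results above was not tested.

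Of 20 measured transcription factor genes of epidermal differentiation none passed on all arrays. Among the 20, 17 lay below 0 (median log2 change -0.09), where 8299 of all 17097 genes did, and 11 lay within 0.1 of 0. Grhl3, a grainyhead-like factor of barrier formation, had the lowest p and read 5.06 ± 0.06 in cKO and 5.26 ± 0.07 in WT (n = 4 each, limma adjusted p = 0.0748). These values lay in the dim range. Without WT replicate 4, 2 of the 20 fell, where 1.72% of all genes fell in that fit. They were Klf4, a factor of barrier acquisition (1.22-fold, limma adjusted p = 0.0281), and Ovol1, a zinc finger repressor of keratinocyte growth (1.57-fold, limma adjusted p = 0.00459). On all arrays their limma adjusted p was 0.409 and 0.119. WT replicate 4 held the lowest WT value of both genes, so leaving it out enlarged each fall by construction. Klf4, Ovol1, Dgat2 and Alox12e were named after their values were seen.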

How the data were processed

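Total RNA was extracted with TRizol, amplified from 25 ng with 17 cycles and hybridised to Affymetrix arrays, 1 per sample, per the labels' protocols. The authors deposited log2 expression for each probe set, computed with RMA, per the submitters' processing notes; its version and settings are not given in the sources. They ran from 3.09 to 13.1, and array medians from 5.87 to 5.95, so no further normalization was applied. Of 45141 probe sets, 28898 had 1 gene symbol in the platform annotation, 551 several and 15692 none, and only the first were named. The symbols of all 32 members are unchanged in RefSeq (GRCm38.p6). Per gene the probe set with the highest mean was tested.

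The 4 cKO arrays were compared with the 4 WT arrays over all genes with limma 3.58.1 under R 4.3.3, using lmFit and a trended eBayes, two-sided, with Benjamini-Hochberg adjustment over all 17097 genes and a threshold of 0.05. Results on further probe sets were adjusted over all probe sets. The script was tested on simulated data. The titles name an animal per array, so the p-values rest on animal-to-animal spread as labelled, and the number of arrays limits the precision. The sources name no array batches.

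The members, 20 gene lists (323 entries, 278 of them measured, 4 under an older symbol) and tests were chosen with earlier results of these data known. All members were to be accounted for, with values on every array for those past the threshold in any fit without 1 array and for the lowest p of each layer; of other lists up to 4 genes past the threshold, or the lowest p, were named, with Ehmt2 and Dmkn. Further genes were named after their values were seen. Alternatives were quantile normalization, a common median, a filter on dim probe sets (lowest 40%), the mean of all probe sets, eBayes without trend, weights per array, a replicate block, leaving out each array, testing every probe set, and other thresholds. Plots used matplotlib 3.10.9 (Python 3.11.15).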

Additional observations from a re-analysis of the deposited data

Results flagged for a closer look

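In groups of 4 arrays, 1 value lay apart from the other 3 by more than Dixon's critical share of the group's range in 6 of 140 groups tested, and chance flags about 1 in 20 groups. Of the 64 groups of the differentiation genes 3 were among them, and in each WT replicate 4 was above the other WT arrays. Krt10 read 10.70 there and 10.23 to 10.28 in the others. Calm4 read 8.16 against 7.47 to 7.56, and Alox12b 4.94 against 4.70 to 4.74. WT replicate 4 also lay apart for Fst, the follistatin gene on the bulge marker list, at 10.66 against 10.99 to 11.05, and for Col7a1, the collagen gene of anchoring fibrils, at 10.50 against 10.60 to 10.61. Grhl3 read 5.36 in WT replicate 3 and 5.22 to 5.23 in the other WT arrays.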

How the results depend on the processing

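Sbsn and Krtdap kept their direction and their side of the threshold in all 15 other gene-level fits, with adjusted p by limma of 0.000924 to 0.0114 and 0.00464 to 0.0466. Of the refitted log2 changes of single members, 4 newly passed the threshold, all without WT replicate 4 (Calm4, Casp14, Asprv1, Ivl), and 495 kept their side; the adjusted p by limma of these 4 ran over the other gene-level fits up to 0.798, 0.858, 0.937 and 0.338. The count of members that rose was 1 to 5 over the fits without 1 array, with 5 only without WT replicate 4, and the count that fell was 1 in each; at an adjusted p under 0.01 it was 0, as Krtdap did not pass. The second Ivl probe set newly passed without WT replicate 4 (log2 change 0.48, with 0.22 the lowest over the fits without 1 array). Over all genes, rises numbered 190 to 502 and falls 67 to 294 when 1 array was left out, against 329 and 143. They numbered 159 and 44 at an adjusted p under 0.01 and 497 and 247 under 0.1, and array weights gave 249 falls. With the replicate block 191 genes rose and 77 fell, and the members kept 1 rise and 1 fall. Equal replicate numbers did not deviate together (r from -0.53 to 0.03 across genes), and 0 of 8 arrays correlated best with its own number, so the numbers were not taken as pairs. The cause of these shifts was not tested. Signal near background limits the 13 dim members, which the filter removed.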
